A study of Mus musculus with 23 samples.

Results

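Aminoacyl-tRNA synthetases join each amino acid to its tRNA, the step that supplies the ribosome with charged tRNA. Mammalian cells carry 1 set of these enzymes for the cytosol and a largely separate set, also encoded in the nucleus, that is imported into mitochondria. Several cytosolic synthetases sit together with scaffold proteins in the multisynthetase complex. When uncharged tRNA accumulates, the kinase GCN2 phosphorylates eIF2, translation of the transcription factor ATF4 rises, and ATF4 induces amino acid transporters, biosynthetic enzymes and many cytosolic synthetases. Inherited variants of several of these genes cause neuropathies or encephalopathies, so neurons are known to depend on them.

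The family was selected by gene symbol from the deposited tables of mouse hippocampal RNA: 20 cytosolic genes (without a final 2) and 16 mitochondrial genes (with a final 2), 36 of 39017 genes in all. These 2 names follow the symbol only, and a gene called cytosolic here may also encode a mitochondrial form. All 36 were in both tables and all 36 were tested in each comparison. The symbols alone defined the members, but the family was proposed with results of these data already known, so its counts are descriptions set beside those of all genes and support nothing about the family as a class.

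The series compared hippocampi of wild-type (WT) mice and of mice labelled Nrsn2 knockout, either as controls or after chronic social defeat stress (CSDS). In CSDS a mouse was put into the cage of an aggressive CD-1 mouse for 5 min on each of 10 days, with a new aggressor each day, and lived beside that aggressor across a divider between sessions. The 4 groups held 5 libraries each: WT controls 6 to 10, WT CSDS 1 to 5, knockout-labelled controls 6 to 10 and knockout-labelled CSDS 1 to 5. The labels give no age, sex, strain background or description of the Nrsn2 allele, and they do not state whether the replicates of a group were different animals. The p-values therefore cover only the spread among these libraries, which may be technical. Since these are whole hippocampi, fewer cells of a type and less RNA per cell cannot be told apart. Levels are RPKM, reads scaled to gene length and library size, so they can be compared between genes.

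Some features of the libraries bear on every result below. Nrsn2 itself was not lower under the knockout label (29.1 ± 2.42 RPKM in WT controls against 31.2 ± 1.93 in knockout-labelled controls, SD, n = 5 each), so the text speaks of libraries labelled knockout and every direction between genotypes rests on that label. For 3 libraries (WT 9B, and 11 and 10B of the knockout label) the title names a control and the treatment field names CSDS. They were kept out of all groups. Control 10 of each genotype had Xist at 56.5 and 48.2 RPKM, against at most 0.0618 RPKM in the other 18 libraries of the groups. Ribosomal and other structural RNA was lower after CSDS under both labels, in 7 of 9 rows each by limma, beside 12.5% and 8.88% of all genes. Its part in the CSDS results was not tested. Choroid plexus content varied within groups: the sum of 5 markers ran from 22.1 to 4863 RPKM in WT controls and from 572.5 to 4484 in knockout-labelled controls. After CSDS it ran from 2875 to 3708 RPKM in WT and from 499.9 to 3754 under the label. The part of this tissue in the results was not tested. Depth was 25.62 to 55.61 M reads per library. The hippocampal neuron markers Neurod6 and Prox1 were present throughout, at no less than 60.9 and 8.90 RPKM. At the median depth, the cytosolic genes were backed by 1375 to 7407 reads and the mitochondrial genes by 310.2 to 10875, estimated from the mean abundance in the authors' deposited table.

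Promoter sequence is shown first for the cytosolic genes that hold a composite C/EBP and ATF motif, TGATGNAA, the letters through which ATF4 and its partners are known to bind amino acid response genes. RefSeq promoter windows (GRCm38.p6, 250 bases before to 50 bases after the start) were at hand for 26 members, 12 cytosolic and 14 mitochondrial. The motif, searched on both strands, was present in 5 of the 12 cytosolic windows (Aars, Gars, Iars, Tars and Yars) and in 0 of the 14 mitochondrial ones, beside 1304 of 32851 windows (3.97%) of all genes. All 5 belong to the 7 windows of a list of 12 cytosolic synthetases known as ATF4 targets. The other 2 of those 7 windows, Eprs and Sars, did not hold these letters, nor did the 5 windows of cytosolic genes outside the list. The 250 bases upstream of Gars and Tars follow in lower case, 5′ to 3′ on the strand of the gene, with the motif in capitals. In both it lies on the opposite strand, so the capitals are its reverse complement.
Gars, chr6:55037751-55038000, plus strand: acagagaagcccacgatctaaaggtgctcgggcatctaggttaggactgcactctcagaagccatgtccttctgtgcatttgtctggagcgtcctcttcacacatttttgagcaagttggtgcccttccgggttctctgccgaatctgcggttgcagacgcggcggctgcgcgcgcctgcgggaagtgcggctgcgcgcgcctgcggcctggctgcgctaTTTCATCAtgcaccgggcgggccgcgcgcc
Tars, chr15:11399659-11399908, minus strand: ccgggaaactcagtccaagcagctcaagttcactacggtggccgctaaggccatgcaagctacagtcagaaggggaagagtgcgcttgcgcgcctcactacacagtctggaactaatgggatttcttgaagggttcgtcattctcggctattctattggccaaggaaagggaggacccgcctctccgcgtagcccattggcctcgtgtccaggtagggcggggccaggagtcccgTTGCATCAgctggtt

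In Iars and Yars the motif is shown within 30 bases, because it lies a few bases after the annotated start, in Yars on the strand of the gene and in Iars on the opposite one.
Iars, chr13:49682126-49682155, plus strand: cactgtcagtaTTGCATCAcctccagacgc
Yars, chr4:129189895-129189924, plus strand: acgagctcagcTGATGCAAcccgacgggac
A match describes letters in the window and was not tested as a binding site. Of the motif holders, Gars and Yars passed the limma test in all 4 pairwise comparisons below, Aars in 1, and Tars and Iars in none. Hars, which had no window, also passed in all 4. Qars, whose window lacks the motif, passed after CSDS under both labels. Cars, Hars, Lars, Mars, Nars, Rars, Vars and Wars had no window and were not searched. The share of all genes that passed in all 4 was not counted, so these calls are not linked to the motif.

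Cytosolic synthetases were well expressed and steady between libraries. Nars, which charges tRNA with asparagine, was the highest (mean of 20 libraries 62.0 RPKM), followed by Gars for glycine (39.8), Hars for histidine (35.9), Sars for serine (33.6) and Kars for lysine (23.1). Vars, for valine, was the lowest of the 20 at 6.33 RPKM, and the median was 14.5. The coefficient of variation within groups had a median of 2.93% over the cytosolic genes and 5.69% over the mitochondrial genes, beside 6.03% over 18263 genes of mean RPKM at least 0.5. These sets differ in level: their median RPKM was 14.5, 4.98 and 5.97. The spread was not compared at matched level, so it is not shown to be particular to the cytosolic genes. Neighbours in this order often overlapped: Kars, Farsb, Wars, Dars and Eprs had means between 21.4 and 23.1 RPKM and ranges that crossed.

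Mitochondrial synthetases were lower, with a median of 4.98 RPKM. Iars2 (8.45 RPKM) and Hars2 (7.65) led the ordinary members, and Wars2 (1.48) and Ears2 (1.58), which load tryptophan and glutamate, were the lowest of the 36. Lars2, the mitochondrial leucine enzyme, stood apart from both sets. Its mean was 61.4 RPKM, and single libraries ran from 38.7 to 132.1 RPKM, a 3.41-fold range, against at most a 1.60-fold range for any other member (Fars2). The plot of levels by gene shows both features, the wide scatter of Lars2 and the narrow bands of the cytosolic genes.

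**Figure D1:**
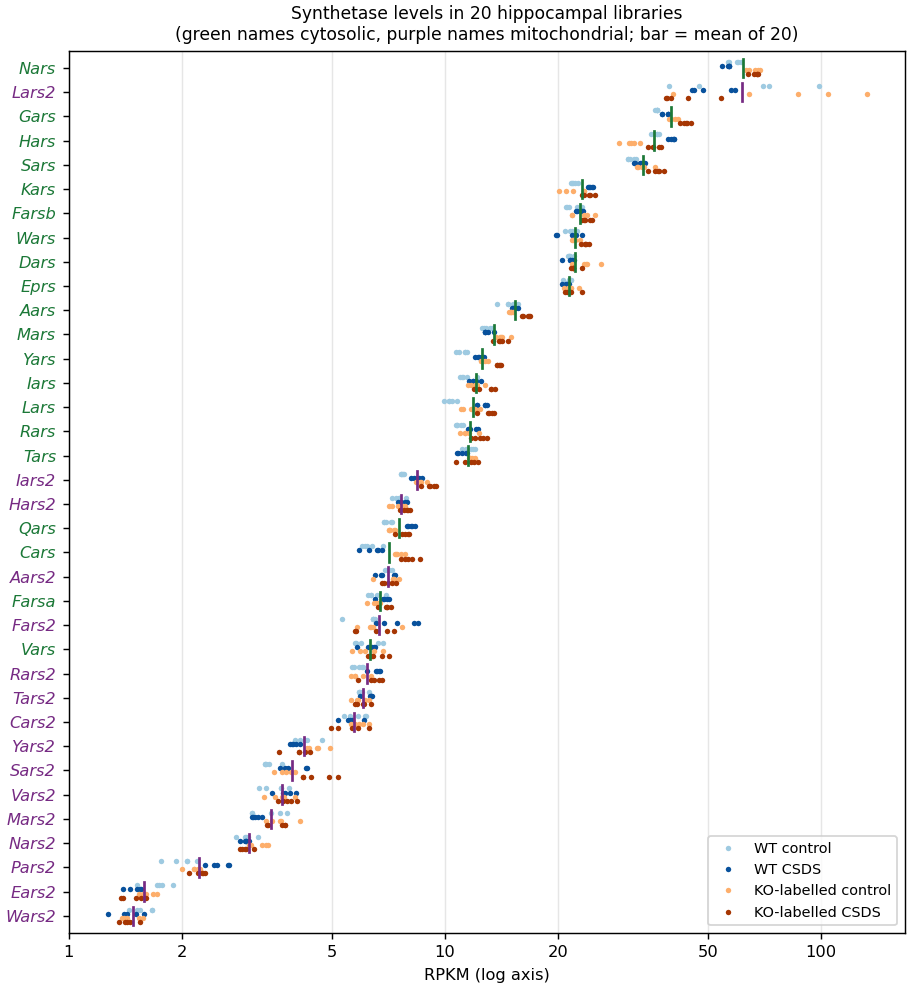
RPKM on a log axis for the 36 synthetase genes, ordered by mean, with 1 point per library coloured by group (5 libraries in each of 4 groups) and a bar at the mean of 20 libraries; gene names are green for cytosolic and purple for mitochondrial genes. Cytosolic means run from 6.33 to 62.0 RPKM and mitochondrial means from 1.48 to 8.45 RPKM apart from Lars2 at 61.4, whose points spread from 38.7 to 132.1.

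The first comparison asked how synthetase RNA differed in the WT hippocampus after defeat. Of the 20 cytosolic genes, 7 were higher and 0 lower at a limma adjusted p under 0.05 over all genes tested, with a median log2 fold change of 0.07. Of all 18274 genes tested, 9.88% were higher and 12.5% lower, with a median of −0.002. The 7 were Lars, Qars, Yars, Kars, Hars, Rars and Gars, which handle leucine, glutamine, tyrosine, lysine, histidine, arginine and glycine. Lars, Qars, Kars and Rars are subunits of the multisynthetase complex, of whose 8 synthetases those 4 were higher and 0 lower.

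Lars (ENSMUSG00000024493, chromosome 18, 42202298 to 42262194, mm10) differed most among the cytosolic members. It was at 10.2, 9.92, 10.8, 10.3 and 10.4 RPKM in WT controls 6 to 10 and at 12.8, 12.2, 12.8, 12.1 and 12.9 RPKM in WT CSDS 1 to 5. Every defeated WT library lay above every control. The log2 fold change was 0.27 ± 0.03 (SE, limma adjusted p = 0.000428), a mean 21.6% higher. Qars was at 6.98, 6.89, 6.90, 7.24 and 7.20 RPKM in the controls and 8.16, 7.98, 7.95, 8.13 and 8.33 after CSDS, again without overlap (0.19 ± 0.03, adjusted p = 0.0011). Kars rose from 22.0 ± 0.385 to 24.3 ± 0.310 RPKM (SD, n = 5 each) and Hars from 36.3 ± 0.616 to 40.1 ± 0.610, both by 0.14 ± 0.02 on the log2 scale. Yars rose by 0.14 ± 0.03, Rars by 0.11 ± 0.03 and Gars by 0.08 ± 0.02, in Gars a change of 5.78% with the 5 control libraries within 36.2 to 36.7 RPKM.

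The other 13 cytosolic genes did not pass. Nars had a log2 fold change of −0.06 (unadjusted p = 0.0361 in the limma fit across all genes, adjusted p = 0.11), Sars 0.07 (adjusted p = 0.0706) and Iars 0.07 (adjusted p = 0.136). Dars, Eprs, Mars, Cars, Vars and Wars, for aspartate, glutamate with proline, methionine, cysteine, valine and tryptophan, all lay between −0.03 and 0.03. Farsa and Farsb, the 2 chains of the phenylalanine enzyme, were at 0.08 and 0.07, Aars at 0.05 and Tars at −0.06.

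Among the 16 mitochondrial genes 5 were higher and 0 lower in WT after CSDS, with a median log2 fold change of 0.01. Pars2, the proline enzyme, was at 2.06, 1.93, 2.06, 2.20 and 1.76 RPKM in the controls and 2.66, 2.43, 2.30, 2.47 and 2.64 after CSDS, with no overlap (0.27 ± 0.06, limma adjusted p = 0.00855). Rars2 rose by 0.15 ± 0.03 (adjusted p = 0.00855), Iars2 by 0.12 ± 0.02 (adjusted p = 0.00599), Sars2 by 0.19 ± 0.05 (adjusted p = 0.025) and Fars2 by 0.25 ± 0.08 (adjusted p = 0.0397). Fars2 shares 10.7% of its exon bases with genes that include Nrn1 on the opposite strand, and Iars2 shares 24.2% with genes that include Rab3gap2; the reads carry no strand, so these values are uncertain. Ears2 had the lowest value apart from Lars2, at −0.16 (adjusted p = 0.0533). Of the others, Vars2 was at 0.08, Tars2 at 0.06, Hars2 at 0.03, Nars2 at −0.01, Aars2 at −0.02, Cars2 at −0.05, Wars2 and Yars2 at −0.09 and Mars2 at −0.10, and none passed.

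These WT counts depended on the group labels. With the conflicting library 9B counted as CSDS, 1240 genes were called in all. They held 4 cytosolic and 3 mitochondrial genes, against 7 and 5 in the main fit. Some of the 7 cytosolic calls above were therefore lost in that setting. Over all settings, 7 of the 12 members called in WT kept their call. Sars2 lost its call without control 8, control 9, CSDS 3 or CSDS 4 and Fars2 without any 1 of 8 libraries (highest adjusted p over all settings 0.215 and 0.22). Markers of other cells moved with the WT comparison. Of 5 endothelial markers 1 was higher (Slco1a4 0.38) and 2 lower (Cldn5 −0.48 and Flt1 −0.27). Among 5 microglia markers 2 were higher and 0 lower, with P2ry12 the highest at 0.46. Astrocyte markers had 1 of 5 higher (Aldh1l1 0.26) and 1 lower (Aqp4 −0.14), and oligodendrocyte markers had 1 of 5 lower (Mobp −0.30). Of 5 red blood cell markers all 5 were higher, and their summed level was 205.9 to 296.6 RPKM in controls against 558.5 to 2807 after CSDS. Their part in the synthetase values was not tested.

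**Figure D2:**
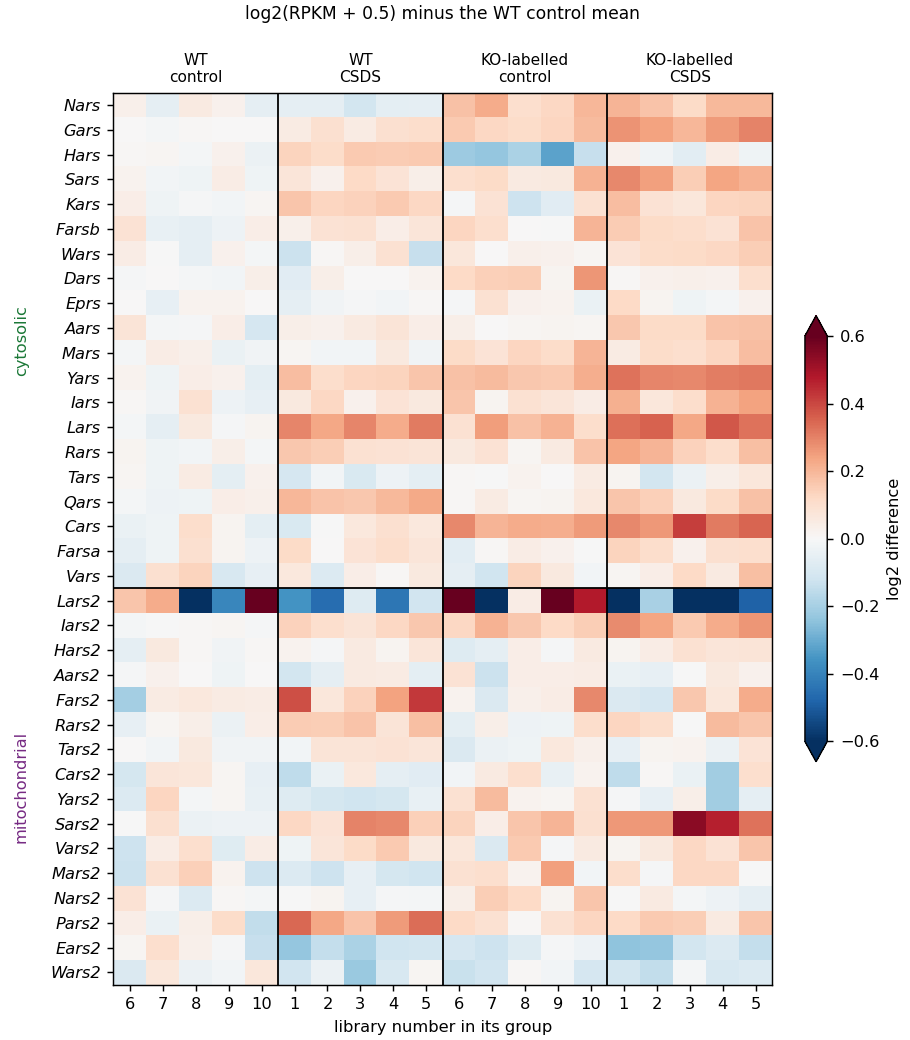
Difference of log2(RPKM + 0.5) from the WT control mean for each synthetase (rows, 20 cytosolic above 16 mitochondrial, each ordered by level) in each of the 20 libraries (columns, numbered as in the labels), with colours capped at ±0.6. Lars, Qars and Pars2 are red across WT CSDS, Cars, Nars, Gars and Yars are red in both knockout-labelled groups, Hars is blue in knockout-labelled controls, and Lars2 varies from library to library within groups.

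The same comparison in libraries labelled knockout gave 7 cytosolic genes higher and 0 lower, with a median log2 fold change of 0.09. Over 18259 genes 6.17% were higher and 8.88% lower, with a median of −0.007. Of the called genes 41.0% were higher, and 52.2% with each library centred on its median, a scaling under which the cytosolic count stayed at 7. The called genes were Hars, Lars, Aars, Yars, Gars, Qars and Wars. Hars (chromosome 18, 36766528 to 36783205) was at 31.1, 30.9, 31.7, 29.0 and 32.9 RPKM in knockout-labelled controls and 37.0, 35.8, 34.7, 37.4 and 35.6 after CSDS. The groups did not overlap, and the log2 fold change was 0.21 ± 0.04 (limma adjusted p = 0.00475).

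Yars, the tyrosine enzyme, was at 12.6, 12.7, 12.5, 12.5 and 13.0 RPKM in these controls and at 14.1, 13.7, 13.7, 13.9 and 14.0 after CSDS (0.13 ± 0.02, adjusted p = 0.0064). Every defeated library was above every control here too. Aars, the alanine enzyme, which shares 15.1% of its exon bases with genes that include Exosc6 and so is uncertain, rose by 0.13 ± 0.02 (adjusted p = 0.00602), Gars by 0.11 ± 0.03, Lars by 0.16 ± 0.04, Qars by 0.10 ± 0.03 and Wars by 0.09 ± 0.02. Kars, at 0.13 ± 0.05, missed the threshold with an adjusted p of 0.0869, as did Sars at 0.12 (adjusted p = 0.0529) and Rars at 0.10 (adjusted p = 0.1). Dars had the lowest cytosolic value, −0.10 (adjusted p = 0.134). The remaining 9 cytosolic genes lay between −0.02 and 0.09.

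Of the mitochondrial genes, Sars2 was higher under the knockout label, at 3.79, 3.52, 3.90, 4.00 and 3.68 RPKM in controls and 4.18, 4.19, 5.19, 4.90 and 4.40 after CSDS (0.24 ± 0.06, adjusted p = 0.0235). Lars2 was the 1 member called lower (−0.88 ± 0.27, adjusted p = 0.0495) and is described with its library values further on. The other 14 did not pass, with Pars2 at 0.04 and Fars2 at −0.01, Rars2 at 0.11, Iars2 at 0.08, Nars2 at −0.10 and Yars2 at −0.14. With knockout-labelled 11 and 10B counted as CSDS, 0 of the 36 and 143 genes in all were called, and without CSDS 2 or CSDS 4 the cytosolic count was 4. Leaving out control 10 gave 10. Lars was lost without any of 4 libraries, Qars and Wars each without any of 8 or 7, and Sars2 without CSDS 4 (highest adjusted p over all settings 0.135, 0.395, 0.0995 and 0.16). Other cell types moved with this comparison: of 5 endothelial markers 4 were lower and 1 higher after CSDS (Slco1a4 0.22), of 5 meningeal fibroblast markers 4 were lower and 0 higher, and of 5 astrocyte markers 2 were lower (Aqp4 −0.33 and Gja1 −0.24). The endothelial and meningeal lists had summed levels of 43.2 to 53.5 RPKM falling to 34.5 to 40.2 and of 39.1 to 55.1 falling to 22.3 to 29.2. Their part in the synthetase values was not tested.

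Gars, Hars, Lars, Qars, Yars and Sars2 were called higher after CSDS under both genotype labels, 6 of 36 members, where 3.31% of all genes tested in both were called higher in both. The 2 comparisons share no library. The difference of the effects, knockout label minus WT, was tested directly and 0 of the 36 members passed, against 0.0602% higher and 0.0876% lower among 18263 genes in limma, 27 genes in all. At an unadjusted p under 0.05, 2 members were above 0 (Wars 0.11 and Aars 0.09) and 4 below (Pars2 −0.22, Fars2 −0.26, Lars −0.11 and Qars −0.09). The 95% interval of the difference for Lars ran from −0.21 to −0.01, for Gars from −0.03 to 0.09 and for Yars from −0.08 to 0.05. The genes that limma called under 1 label alone, such as Kars and Pars2 in WT or Aars and Wars under the knockout label, are thus not shown to differ between labels.

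**Figure D3:**
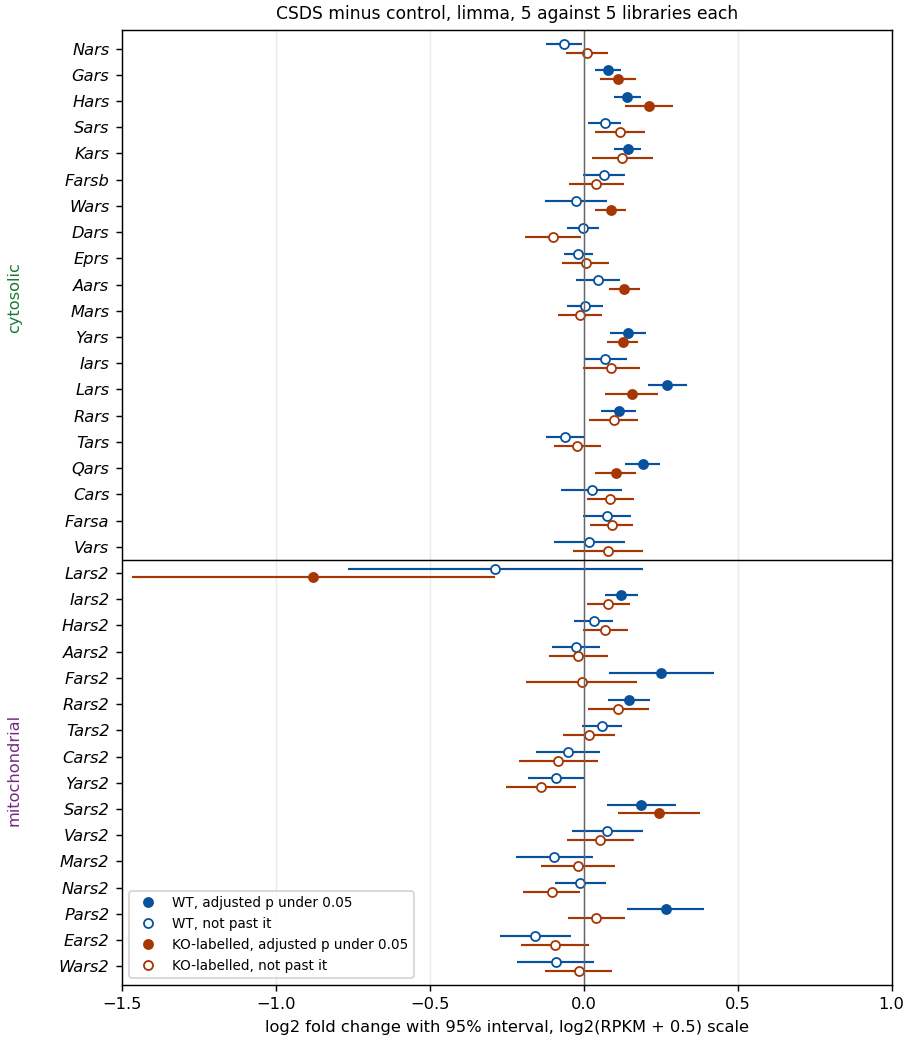
Log2 fold change of CSDS minus control with its 95% interval for each synthetase, in WT (blue) and in libraries labelled knockout (brown), from limma on log2(RPKM + 0.5) with 5 libraries per group; filled points have an adjusted p under 0.05. Most cytosolic points lie above 0 under both labels, up to 0.27 for Lars in WT, and Lars2 has the widest intervals.

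The second pair of comparisons set the knockout label against WT, first among controls and then after CSDS. They use different libraries but 1 shared estimate of the spread. Among controls 7 cytosolic genes were higher (Cars, Yars, Lars, Nars, Gars, Dars and Mars) and 1 lower (Hars), with a median log2 difference of 0.08, beside 2.45% higher, 1.5% lower and a median of 0.008 over 18263 genes. After CSDS again 7 were higher (Cars, Nars, Gars, Yars, Sars, Wars and Mars) and 1 lower (Hars), median 0.06, beside 1.51% and 0.734% and a median of 0.004. Of the genes called in controls 62.0% were higher, and 51.0% with libraries centred on their medians, where 6 cytosolic genes were higher and 1 lower.

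Cars, the cysteine enzyme (chromosome 7, 143557230 to 143600090), differed most. It was at 6.14, 6.19, 6.84, 6.40 and 6.03 RPKM in WT controls and 7.82, 7.35, 7.46, 7.41 and 7.64 in knockout-labelled controls (0.24 ± 0.04, limma adjusted p = 0.00179). After CSDS it was at 5.89, 6.29, 6.62, 6.79 and 6.61 RPKM in WT and 7.81, 7.65, 8.58, 7.97 and 8.17 under the knockout label (0.30 ± 0.04, adjusted p = 0.000155). The 10 WT values and the 10 knockout-labelled values did not overlap, while neither label's CSDS effect on Cars passed the test.

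Nars (chromosome 18, 64499647 to 64516652) showed the same arrangement. WT controls held 60.1, 56.6, 61.2, 59.9 and 56.8 RPKM and knockout-labelled controls 66.6, 68.8, 63.2, 64.4 and 67.8. After CSDS the values were 56.8, 56.8, 54.5, 56.6 and 56.8 in WT and 68.0, 66.4, 63.8, 67.5 and 67.4 under the label. The log2 differences were 0.17 ± 0.03 (adjusted p = 0.0022) in controls and 0.24 ± 0.03 (adjusted p = 4.04e-05) after CSDS.

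Gars and Yars, both with the promoter motif printed above, were higher under the label in controls and after CSDS, and also higher after CSDS under each label. Gars (chromosome 6, 55038007 to 55079500) was at 36.5, 36.2, 36.7, 36.6 and 36.5 RPKM in WT controls, 37.8, 39.1, 37.9, 39.1 and 39.3 in WT CSDS, 40.8, 39.8, 39.5, 39.9 and 41.7 in knockout-labelled controls and 44.1, 43.3, 42.0, 43.7 and 45.0 in knockout-labelled CSDS. The 4 groups formed 4 separate steps with no shared value. Its difference between labels was 0.14 ± 0.02 in controls (adjusted p = 0.00077) and 0.17 ± 0.02 after CSDS (adjusted p = 6.11e-05). Yars (chromosome 4, 129189760 to 129219607) was at 11.3, 10.9, 11.5, 11.3 and 10.7 RPKM in WT controls and 12.7, 12.02, 12.2, 12.3 and 12.6 in WT CSDS, below the knockout-labelled values already given except that WT CSDS and knockout-labelled controls overlapped. Its label differences were 0.18 ± 0.02 (adjusted p = 0.000153) and 0.16 ± 0.02 (adjusted p = 0.00026).

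Hars was the exception in direction. WT controls had 36.5, 36.6, 36.04, 37.0 and 35.4 RPKM, above the 29.0 to 32.9 of knockout-labelled controls (−0.22 ± 0.03, adjusted p = 0.000205). After CSDS WT libraries had 39.8, 39.2, 40.6, 40.3 and 40.6 RPKM, above the 34.7 to 37.4 under the label (−0.15 ± 0.03, adjusted p = 0.00623). Defeat and the label thus went opposite ways on this gene, and knockout-labelled CSDS libraries lay around the level of WT controls. Hars2, its mitochondrial counterpart, lies head to head with it and shares 195 exon bases on the opposite strand. Hars2 was at −0.01 and 0.03 in the 2 comparisons and did not pass.

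The 3 libraries of conflicting label are given as values only. WT 9B had Gars at 36.9, Lars at 10.3 and Hars at 36.6 RPKM, values close to those of the WT controls. The libraries 11 and 10B of the knockout label had Gars at 41.6 and 41.7, Lars at 12.01 and 11.8, and Hars at 31.1 and 33.6 RPKM. Cars was at 6.42 RPKM in WT 9B and at 7.79 and 8.03 RPKM in libraries 11 and 10B, above all 10 grouped WT libraries. The structural RNA Rn7sk was at 3.54 RPKM in WT 9B, beside 7.73 to 19.9 in WT controls and 3.32 to 6.78 in WT CSDS. It was at 18.2 in 11 and 5.77 in 10B, beside 9.20 to 36.2 in knockout-labelled controls and 4.01 to 5.75 in knockout-labelled CSDS. Xist was at 1.60 and 1.45 RPKM in 11 and 10B.

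The other cytosolic calls were smaller or less stable. Mars was higher by 0.13 ± 0.03 in controls and 0.11 ± 0.03 after CSDS (adjusted p = 0.0162 and 0.0446), and the second call was lost in 13 of 22 alternative settings. The first was lost in 3, among them the fit without both control 10 libraries. Lars differed by 0.17 ± 0.03 in controls (adjusted p = 0.00981) and 0.05 after CSDS (adjusted p = 0.488), and Dars by 0.14 ± 0.03 and 0.04. Dars was lost without any of 6 libraries, WT control 6 among them (highest adjusted p 0.135). Sars, with 0.11 in controls (adjusted p = 0.0571), passed after CSDS at 0.16 ± 0.03 (adjusted p = 0.00832), and Wars at 0.14 ± 0.04 (adjusted p = 0.0439), a call lost in 13 of 22 settings. Aars stood at 0.02 and 0.10 (adjusted p = 0.0534 after CSDS) and Iars at 0.08 and 0.10, neither passing.

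Of the mitochondrial genes Iars2 alone was called, at 7.62, 7.67, 7.72, 7.76 and 7.63 RPKM in WT controls and 8.42, 8.95, 8.65, 8.40 and 8.56 in knockout-labelled controls, without overlap (0.15 ± 0.03, adjusted p = 0.00219). After CSDS it differed by 0.11 ± 0.03 (adjusted p = 0.027), a call lost without any of 7 libraries (highest adjusted p over all settings 0.0873). The median over the 16 was 0.05 in controls and 0.003 after CSDS. Sars2 at 0.18, Mars2 at 0.16, Pars2 at −0.14 and Fars2 at −0.20 were the widest uncalled differences after CSDS apart from Lars2. Cars, Gars, Iars2, Mars, Nars and Yars were higher under the label in both comparisons, 6 of 36 members, where 0.564% of all genes were. Of 10 hippocampal neuron markers, 2 were higher in knockout-labelled controls (Bok 0.43 and C1ql2 0.44) and 0 lower. Their median was 0.05, with Wfs1 at −0.30 (limma adjusted p = 0.121) at the other end. In the same comparison 1 of 5 endothelial markers (Cldn5 0.35) and 1 of 5 astrocyte markers (Aqp4 0.23) were higher and 0 lower. After CSDS, 1 neuron marker was higher under the label (Bok 0.53) and 0 lower. There 1 of 5 meningeal fibroblast markers was lower (Lum −0.77), as were red blood cell markers (5 of 5, median −1.75). Their part in the synthetase differences was not tested.

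**Figure D4:**
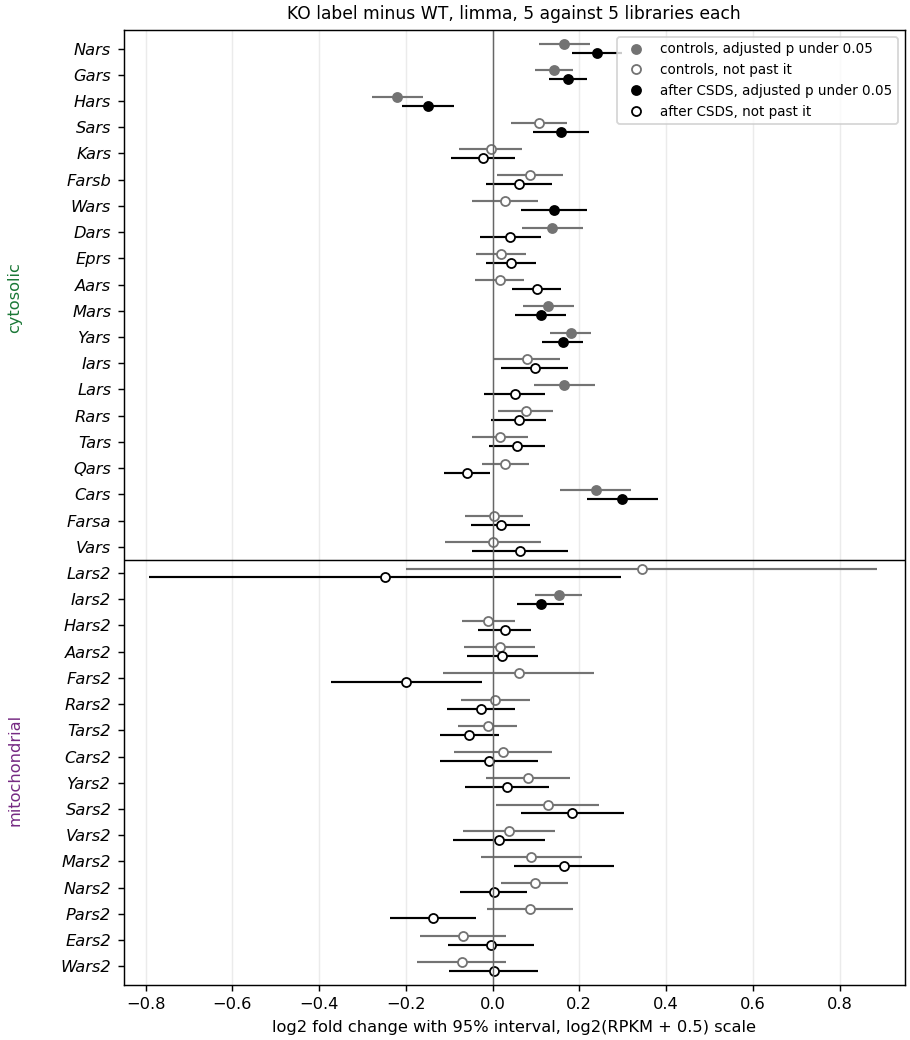
Log2 difference of libraries labelled knockout minus WT with its 95% interval for each synthetase, among controls (grey) and after CSDS (black), from limma on log2(RPKM + 0.5) with 5 libraries per group; filled points have an adjusted p under 0.05. Cars, Nars, Gars and Yars lie between 0.14 and 0.30 in both comparisons and Hars between −0.22 and −0.15.

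The 12 cytosolic synthetases listed as known ATF4 targets were compared with the other 8. Of the 12, 6 were higher and 0 lower in knockout-labelled controls (median 0.12), and 7 higher and 0 lower after CSDS (median 0.13). Over all genes 2.45% were higher and 1.5% lower in controls, and 1.51% and 0.734% after CSDS. Of the other 8, Dars was higher and Hars lower in controls (median 0.02), and Hars was lower after CSDS (median 0.03). For CSDS against control the division ran otherwise in WT, where 3 of the 12 and 4 of the 8 were higher, beside 9.88% of all genes. Under the knockout label it gave 5 of the 12 and 2 of the 8, beside 6.17%. No test of the 12 against the 8 was made, and the list was drawn up with earlier results of these data known.

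Atf4 itself was higher under the label. It was at 43.1, 42.3, 40.7, 41.8 and 39.4 RPKM in WT controls and 49.8, 50.8, 49.8, 51.0 and 57.7 in knockout-labelled controls, with no overlap (0.32 ± 0.04, adjusted p = 0.000135), and differed by 0.36 ± 0.04 after CSDS (adjusted p = 1.65e-05). In WT it was lower after CSDS (−0.10 ± 0.03, adjusted p = 0.0301), so its direction was not that of Lars, Gars or Yars there. A list of ATF4 pathway and other amino acid response genes held 27 tested genes. Of these, 6 were higher and 0 lower in knockout-labelled controls (2.45% and 1.5% of all genes), and 7 and 0 after CSDS (1.51% and 0.734%). Among them were Chac1, a glutathione-degrading enzyme (0.56 ± 0.06 and 0.50 ± 0.06), the mitochondrial folate enzyme Mthfd2 (0.40 and 0.39) and the asparagine synthetase Asns (0.24 and 0.30). Asns makes asparagine, the amino acid that Nars loads. For CSDS the counts were 2 higher and 4 lower in WT and 2 higher and 3 lower under the knockout label, near the shares of all genes given above (9.88% and 12.5%, and 6.17% and 8.88%). Asns was higher in both (0.11 and 0.17).

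**Figure D5:**
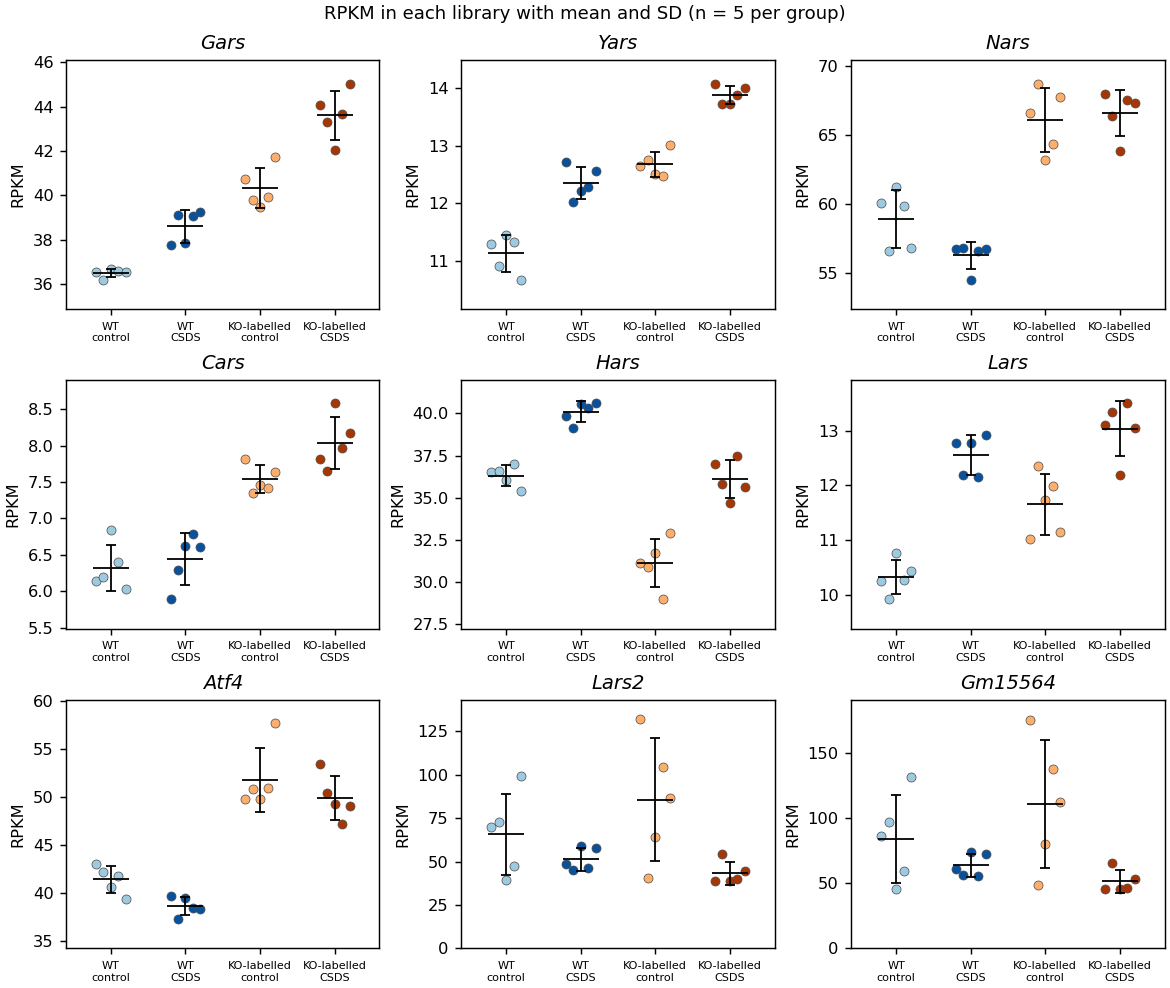
RPKM in each of the 20 libraries for 6 cytosolic synthetases, Atf4, the mitochondrial Lars2 and the gene model Gm15564, with the mean and SD of each group of 5; the axes of the upper 7 panels do not start at 0. Gars forms 4 separate steps from 36.2 to 45.0 RPKM, Cars, Nars and Atf4 separate by genotype label, Hars is lowest in knockout-labelled controls, and Lars2 and Gm15564 scatter alike.

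Lars2 (chromosome 9, 123366927 to 123462666) varied widely between control libraries and less after CSDS. The coefficient of variation was 35.8% in WT controls and 41.4% in knockout-labelled controls. After CSDS it was 12.7% in WT and 15.3% under the label. Group means ran from 43.2 RPKM in knockout-labelled CSDS to 85.6 RPKM in knockout-labelled controls. WT controls 6 to 10 had 70.0, 72.7, 39.3, 47.4 and 99.0 RPKM and WT CSDS 1 to 5 had 48.5, 45.3, 59.1, 46.0 and 57.5. Knockout-labelled controls had 132.1, 40.4, 64.3, 104.5 and 86.8 RPKM and knockout-labelled CSDS 38.7, 54.3, 38.9, 39.8 and 44.4. Controls ranged widely under both labels and overlapped the defeated libraries. The call under the knockout label (−0.88, adjusted p = 0.0495) was lost in 15 of 21 alternative settings, with a highest adjusted p of 0.165, and leaving out any library except control 7 ended it. In WT the value was −0.29 ± 0.22 (adjusted p = 0.367). The authors' edgeR test, whose controls include the conflicting libraries, called Lars2 lower under the knockout label (false discovery rate 0.000723) and not in WT (0.25).

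A gene model on chromosome 16, Gm15564 (35966752 to 35983230), followed Lars2 library by library. It was at 86.4, 96.9, 45.2, 59.7 and 131.5 RPKM in WT controls and 175.3, 48.3, 79.9, 138 and 112 in knockout-labelled controls. Over the 20 libraries the ratio of Lars2 to Gm15564 stayed within 0.751 to 0.871 while Lars2 varied 3.41-fold. The longest exact stretch shared by their GENCODE M21 transcripts was 52 bases, and no stretch of the 75-base read length was shared. Poly(A) selection is meant to remove ribosomal and other structural RNA. Of 9 tested rows for such RNA, a list that includes Gm15564, 7 were lower after CSDS in WT and 7 under the label. The 5.8S ribosomal RNA n-R5-8s1 went from 101.9 ± 48.4 to 20.9 ± 7.42 RPKM in WT (SD, n = 5 each). Under the label it went from 140.8 ± 90.0 to 15 ± 5.38. Gm15564 went from 83.9 ± 33.6 to 63.6 ± 8.77 RPKM in WT, where Lars2 was not called. The part of these RNAs in the Lars2 values was not tested. The sum over all 16 mitochondrial synthetases, 109.9 to 167.3 RPKM in WT controls, is mostly Lars2 and is not used further.

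Partner genes were taken from lists of the same pathway. Their counts are to be read against all genes, of which 9.88% were higher and 12.5% lower after CSDS in WT and 6.17% and 8.88% under the knockout label. Of the 3 scaffolds of the multisynthetase complex, Aimp2 was higher after CSDS in WT (9.15 ± 0.751 to 10.5 ± 0.393 RPKM, 0.19 ± 0.05 on the log2 scale, adjusted p = 0.0273 by limma) and under the knockout label (9.37 ± 0.348 to 10.8 ± 0.405, 0.19 ± 0.03, adjusted p = 0.00699). Its partners Aimp1 and Eef1e1 were at −0.05 and −0.09 in WT and did not pass. Neither label comparison called a scaffold.

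Genes of tRNA maturation and export gave 3 higher and 2 lower of 22 in WT after CSDS, and 3 higher and 1 lower under the label, counts near those shares in WT. Trnt1, which adds the CCA end that synthetases charge, was lower in both (−0.16 each, adjusted p = 0.00667 and 0.00393), and the methyltransferase gene Trmt1 was higher in both (0.12 and 0.13). Among 13 tested partners of mitochondrial charging, Trit1 (0.17) and Gatb (0.15), a subunit of the amidotransferase that makes glutaminyl-tRNA, were higher in WT after CSDS and Trmt10c (−0.15) lower, with 0 called in each direction under the knockout label.

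Of 11 cytosolic elongation and release factors, 2 were higher (Eef2k and Eif5a) and 1 lower (Gspt1) in WT after CSDS, and 1 higher under the label. Eef2k, the kinase that inhibits elongation factor 2, was higher in both, in WT (0.21 ± 0.05, adjusted p = 0.00845) and under the label (0.29 ± 0.04, adjusted p = 0.00123). Of 10 mitochondrial translation factors, 1 was higher (Gfm2 0.16) and 1 lower in WT and 1 lower under the label, the recycling factor gene Mrrf being lower in both (−0.14 and −0.12). Of 15 eIF2 kinase and eIF2 genes, 0 were higher and 2 lower in WT (Eif2s2 and Ppp1r15b), and 1 higher (Eif2b4 0.10) and 1 lower under the label. Eif2s2, the beta subunit of eIF2, was lower in both (−0.19 and −0.14), and 0 were called between labels in controls or after CSDS. The kinase gene Eif2ak4, which encodes GCN2, was at 0.09 in WT (adjusted p = 0.0795) and 0.12 under the label (adjusted p = 0.0536).

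The authors' own test gave its own counts. In the authors' deposited table, at a false discovery rate under 0.05, 6 cytosolic synthetases were higher and 0 lower after CSDS in WT, and 8 higher and 0 lower under the knockout label. Unlike in limma, Gars did not pass in WT (edgeR false discovery rate 0.128). Under the knockout label Kars and Sars passed there (0.0138 and 0.00909) and Wars did not (0.215). For mitochondrial genes that table gave 4 higher and 1 lower in WT and 1 and 1 under the label. Ears2 was the lower gene in WT (edgeR false discovery rate 0.0211), and Rars2 did not pass there (0.0644). Lars2 was the lower gene under the label. Over the 17840 genes with a false discovery rate in the authors' deposited table, 9.15% were higher and 11.8% lower in WT, and 8.45% higher and 8.67% lower under the label. Its fold changes are control over CSDS, and its control means include the 3 libraries of conflicting label.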

How the data were processed

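Poly(A) RNA of hippocampi was sequenced as 75-base single-end reads, per the labels' protocols, with STAR and mm10 named in the submitters' processing notes; the counting tool and all versions are not stated there. The authors deposited RPKM values per gene and library for each genotype label. The deposited log2 fold changes and mean log2 CPM, likelihood ratio scores, and p-values with false discovery rates are the authors' edgeR results, per the file headers and labels. Depth was recovered from the steps of low RPKM values, of which 95.0% to 96.0% lay within 0.05 of a whole read in single-exon genes.

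Values were tested as log2(RPKM + 0.5), which understates the fold of low genes, with limma 3.58.1 in R 4.3.3 (trend, two-sided) on genes of mean RPKM at least 0.5. P-values were adjusted by Benjamini-Hochberg over all genes tested, with a threshold of 0.05. CSDS was tested within each label's 10 libraries. The label comparisons and the difference of effects used all 20. The fit was checked on simulated data. Alternatives covered the pseudocount, filter, scaling, trend, libraries fitted, conflicting labels, the replicate block and leaving out each library. Python 3.11.15, pandas 2.3.3 and matplotlib 3.10.9 were used for sequences and figures. Members and lists were chosen with earlier results of these data known. All 36 members were described, with up to 4 genes of smallest p from each other list; Eif2ak4, Aimp1, Eef1e1, Neurod6, Prox1 and C1ql2 were named for their role after their values were seen.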

Additional observations from a re-analysis of the deposited data

Results flagged for a closer look

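In 144 groups of 5 libraries, 1 for each gene and group, 7 held a library whose gap to its nearest neighbour was over 0.71 of the range of the group; chance gives about 1 in 20. Dars was at 23.1 RPKM in knockout-labelled CSDS 5, against 21.6 to 21.9 in the other 4. Eprs was at 20.6 RPKM in WT control 7, against 21.3 to 21.6. Nars was at 54.5 RPKM in WT CSDS 3, below the 56.6 to 56.8 of its group. Aars2 was at 6.42 RPKM in knockout-labelled control 7, against 7.29 to 7.53. Fars2 was at 5.32 RPKM in WT control 6, below 6.42 to 6.50, and its call after CSDS in WT was also lost without that library. Sars2 was at 3.68 RPKM in WT control 7, above 3.32 to 3.41, and its call did not depend on that library. Tars2 was at 5.94 RPKM in WT CSDS 1, below 6.33 to 6.40.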

How the results depend on the processing

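No member's direction reversed among its calls in any setting. Calls held in all settings for 7 of 12 members in WT after CSDS, 0 of 9 under the knockout label, 6 of 9 between labels in controls and 4 of 9 after CSDS. Counting the conflicting libraries as CSDS left 1240 genes, 4 cytosolic and 3 mitochondrial members called in WT, and 143, 0 and 0 under the knockout label; the difference of effects then had 1 gene and the controls 399. Counting them as control gave 98 genes for the difference, and 1627 genes and 2 mitochondrial members between controls. Under the knockout label, 1 mitochondrial member was called after CSDS with no filter, median centring, quantile normalization or no trend, and 5 in the fit on all 20 libraries. The difference of effects had 41 genes without the trend and 181 without the high-Xist controls, where the label comparison after CSDS had 629. Between controls, median centring gave 480 genes, and the fit on the 2 groups alone 209 genes and 5 cytosolic members. Median centring and the fit on 2 groups each left 0 mitochondrial members between labels after CSDS. The causes were not tested.

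Leaving out 1 library at a time gave 3077 to 4016 genes, 7 to 8 cytosolic and 3 to 5 mitochondrial members in WT after CSDS, and 1658 to 3668, 4 to 10 and 0 to 2 under the knockout label. The difference of effects ranged from 16 (without WT control 9) to 244 genes (without WT control 10), with 0 members. The controls ranged from 368 to 890 genes (7 to 8 cytosolic, 1 mitochondrial) and CSDS from 245 to 474 (6 to 8, and 0 to 1).

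With the replicate number as a block, 4 cytosolic members were called between labels after CSDS (Hars, Mars, Sars and Wars were lost) and Mars was lost between controls. Of 10 same-numbered pairs, 3 deviated together with a correlation over 0.1 (range −0.107 to 0.371). All 3 were between controls (0.21 for number 6, 0.30 for 8 and 0.37 for 10). In 4 of the 10, the best partner was the library of the same number. These values do not settle whether the numbers pair the samples, and the main fits left the block out. Depth limits the low mitochondrial genes most, with 310.2 reads for the lowest.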
